A study of Mus musculus with 12 samples.

Results

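Hoxa9, Hoxa10, Hoxa11, Hoxd9, Hoxd10 and Hoxd11 are the 6 genes that carry the mutations of the mice compared here, and they were chosen for that reason, not for their measured values. They are 6 of 31618 genes listed for the female libraries and of 31669 listed for the male libraries, and all 6 were measured in both sets. RNA was sequenced from 12 pools, each of 3 mice of a mixed CD1/129 background aged 3 to 7 months, with females taken in diestrus, the quiet phase of the oestrous cycle. Female pools were the uterus of 5 genotypes and the oviduct of wild-type (WT) mice. Male pools were the vas deferens, the muscular duct that carries sperm toward the urethra, in the same 5 genotypes, and from WT mice the tail (cauda) of the epididymis, the sperm-storing duct that leads into it. Hoxa-null mice (Hoxa9,10,11-/-) carried 2 mutant copies of the 3 Hoxa genes and Hoxd-null mice (Hoxd9,10,11-/-) 2 mutant copies of the 3 Hoxd genes. Compound Hoxa-null mice (Hoxa9,10,11-/-d9,10,11+/-) had 1 mutant Hoxd copy in addition, and compound Hoxd-null mice (Hoxa9,10,11+/-d9,10,11-/-) had 1 mutant Hoxa copy in addition. The labels name no Cre and no tissue-specific promoter. Each tissue and genotype had 1 library, so no value below has a replicate error and no test between genotypes was made.

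Hox genes lie in clusters, and their order along the chromosome matches the order of the body regions in which they act. In the embryo's Müllerian duct, Hoxa9 is known from the future oviduct, Hoxa10 from the future uterus and Hoxa11 from the future uterus and cervix, and the adult uterus keeps expressing Hoxa10 and Hoxa11 in its stroma, where they are needed for implantation. In males, Hoxa10 and Hoxa11 are known for setting apart the vas deferens from the epididymis. Genes with the same number in different clusters are paralogues, descended from 1 ancestral gene, and often stand in for each other. In published work on these mice the alleles carry frameshifts in neighbouring Hox genes of a cluster, a kind of mutation that removes the protein and not necessarily the RNA. How the alleles were made is not stated in the labels, and the values here are of RNA.

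A Hox protein binds DNA through its homeodomain, which the homeobox of the gene encodes. The homeoboxes of the Hox11 and Hox10 pairs are shown because the results turn on telling the RNA of one paralogue from that of the other. Each is read 5′ to 3′ on the coding strand from the GENCODE transcripts of build GRCm38, a later build than the one used for the deposited values, and capitals mark the bases at which a gene differs from its paralogue.
Hoxa11: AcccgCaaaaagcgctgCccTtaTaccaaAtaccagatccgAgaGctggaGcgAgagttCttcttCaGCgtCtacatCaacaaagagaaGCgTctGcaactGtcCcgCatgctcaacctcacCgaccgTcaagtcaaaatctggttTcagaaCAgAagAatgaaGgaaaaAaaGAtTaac
Hoxd11: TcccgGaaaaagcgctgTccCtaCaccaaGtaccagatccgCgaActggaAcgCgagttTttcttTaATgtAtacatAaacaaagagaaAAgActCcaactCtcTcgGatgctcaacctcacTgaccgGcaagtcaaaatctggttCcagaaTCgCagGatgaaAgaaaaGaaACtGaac
Hoxa10: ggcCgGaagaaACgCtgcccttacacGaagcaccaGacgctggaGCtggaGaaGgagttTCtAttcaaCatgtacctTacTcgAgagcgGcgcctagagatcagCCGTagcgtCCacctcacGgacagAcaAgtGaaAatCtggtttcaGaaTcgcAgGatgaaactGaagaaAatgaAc
Hoxd10: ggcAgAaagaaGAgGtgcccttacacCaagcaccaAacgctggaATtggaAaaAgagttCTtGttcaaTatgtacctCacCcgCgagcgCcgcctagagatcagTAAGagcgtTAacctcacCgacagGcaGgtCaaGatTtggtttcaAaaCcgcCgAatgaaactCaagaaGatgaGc

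All 4 homeoboxes lie in exon 2 of 2 and are coding. In GRCm38 that of Hoxa11 is at chr6:52243402-52243581 on the minus strand, that of Hoxd11 at chr2:74683917-74684096 on the plus strand, that of Hoxa10 at chr6:52232554-52232733 on the minus strand and that of Hoxd10 at chr2:74694141-74694320 on the plus strand. The Hox11 pair differed at 35 of 180 bases, which leaves 57 of 60 residues identical, and the Hox10 pair differed at 38 of 180 bases, also with 57 of 60 residues identical. Hoxa9 and Hoxd9 differed at 31 of 180 bases, with 56 of 60 residues identical. Over the longest coding transcripts, the longest run of bases shared by any pair of the 6 genes was 28, between Hoxd9 and Hoxd11, and it was 17 for Hoxa11 with Hoxd11, 14 for Hoxa10 with Hoxd10 and 17 for Hoxa9 with Hoxd9. Other transcripts overlap the genes themselves: Hoxa11os, on the opposite strand, covers 35.0% of the exon bases of Hoxa11, and Gm28309, on the same strand, covers 10.8% of those of Hoxd11 and 5.73% of those of Hoxd10. Whether strand was used in counting is not given in the sources used here, so reads of Hoxa11 and of its antisense partner cannot be told apart. The deposited tables, on mm9, place the starts of Hoxa9, Hoxa10 and Hoxa11 at 52174053, 52181196 and 52192105 on chromosome 6, and those of Hoxd11, Hoxd10 and Hoxd9 at 74520450, 74530028 and 74535820 on chromosome 2.

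Deposited values are log2 levels, with the median of the 6 libraries of a sex set to 0 for each gene. A level therefore says where a library lies among the 6 for 1 gene, a difference of 1 is 2-fold, and levels cannot be compared between genes or between the sexes. The number of reads behind a member is unknown, since no library was at the floor of 1 normalised read for any of the 6 genes. Relative depth differed by up to 1.34-fold among the female and 1.92-fold among the male libraries, with the WT vas deferens the deepest. Among uteri, WT and Hoxa-null were sequenced in lane 1 and the other 3 in lane 2 of run 134. All uteri with a mutant Hoxd copy were thus in lane 2 and all without one in lane 1. For the uterus, lane and the presence of a mutant Hoxd copy cannot be told apart. Among vasa deferentia, WT came from lane 1 of that run, compound Hoxd-null came from run 136, and the other 3 shared lane 2. The lane of the WT vas deferens and its genotype cannot be told apart. Oviduct markers at least 2-fold higher in the oviduct than in the WT uterus were 4 of 5 (median 5.14), against 16.6% of measured genes. Of 8 caudal epididymis markers, 6 were higher in the epididymis than in the WT vas deferens (median 3.43), against 16.3%. Lcn5 was lower (-3.21). The latter list also had 6 of 8 higher and 1 lower in the Hoxa-null vas deferens, so it does not set the epididymis apart. Ccdc113 (858 normalised reads in the oviduct) and Spint4 (64.4 in the epididymis) counted as measured only through those libraries. That fixed their higher values. Spint4 was also among the 6 higher in the Hoxa-null vas deferens, at 2.76 normalised reads against 1 in WT.

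Across the 6 genes the Hoxa mutation was accompanied by low Hoxa11 RNA in both tissues, and the Hoxd mutation by low Hoxd9 and Hoxd11 RNA in the vas deferens, while Hoxa9 and Hoxd10 were not 2-fold below WT in any mutant. In the Hoxa-null uterus 2 of 6 members, Hoxa10 and Hoxa11, were at least 2-fold lower than in WT, against 7.41% of all measured genes, and 0 were 2-fold higher, against 6.15%. In the Hoxd-null uterus 0 of 6 were lower (background 5.95%) and 0 higher (6.41%). The compound Hoxa-null uterus had 2 of 6 lower, Hoxa11 and Hoxd11 (6.97%), and 0 higher (8.77%), and the compound Hoxd-null uterus had the same pair lower (6.41%) and 0 higher (8.19%). Of the 6 members in the vas deferens 1, Hoxa11, was 2-fold lower in Hoxa-null (8.57%) and 0 higher (11.0%). Hoxd9 and Hoxd11 were the 2 lower members in Hoxd-null (5.03%), with 0 higher (3.45%). Compound Hoxa-null had 2 lower, Hoxa11 and Hoxd11 (8.50%), with 0 higher (14.1%), and compound Hoxd-null had 2 lower, Hoxd9 and Hoxd11 (5.48%), and 1 higher, Hoxa9 (7.80%). All of these comparisons in a tissue share its single WT library.

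**Figure D1:**
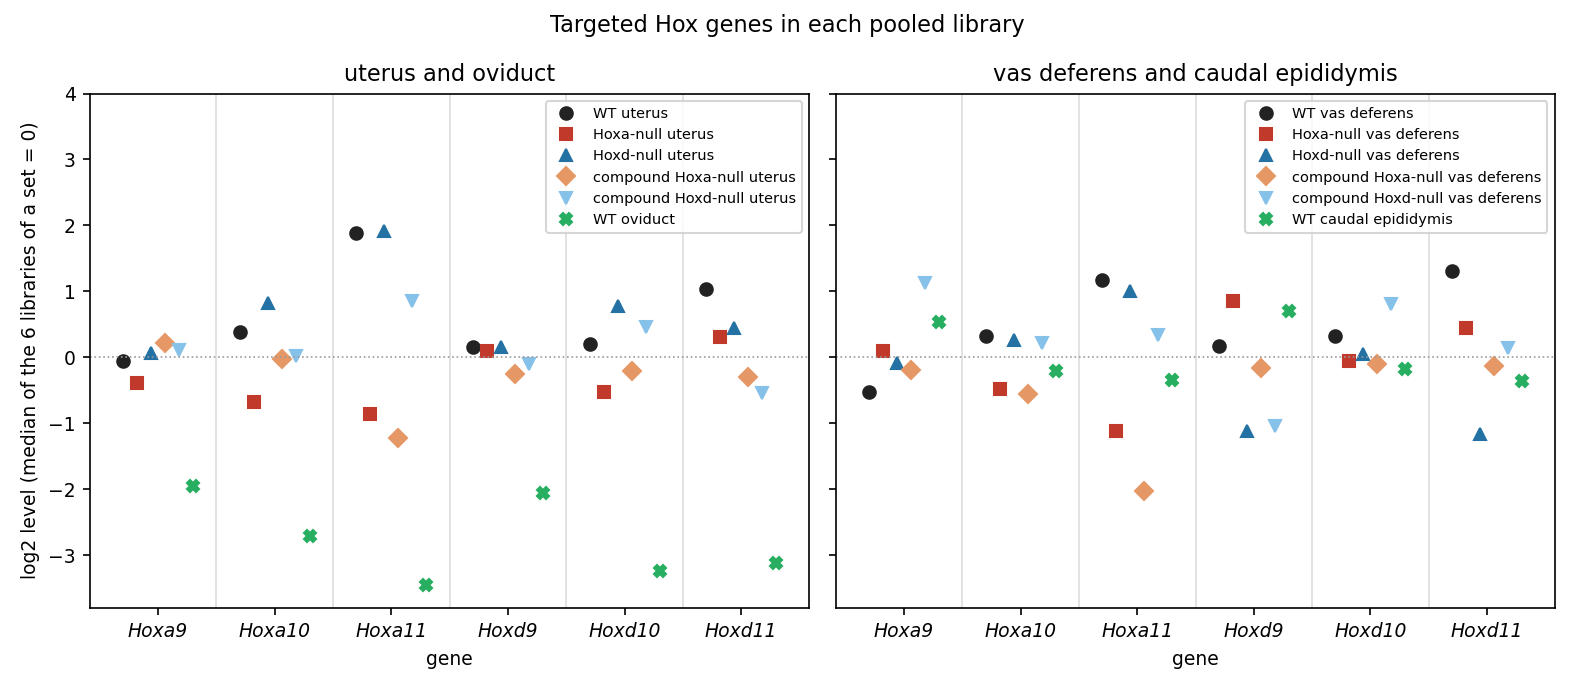
Log2 level of the 6 targeted genes (x axis) in each pooled library, with the median of the 6 libraries of a set at 0 (y axis); each symbol is 1 library of 3 mice, left uterus and oviduct, right vas deferens and caudal epididymis. The Hoxa-null and compound Hoxa-null symbols for Hoxa11 lie at -0.86 and -1.23 (uterus) and at -1.12 and -2.03 (vas deferens), below the other 3 genotypes in each tissue.

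Hoxa11, the paralogue needed for the development and stromal function of the uterus, showed the widest spread among genotypes in both tissues. Its uterine log2 level was 1.88 in WT, 1.92 in Hoxd-null, 0.86 in compound Hoxd-null, -0.86 in Hoxa-null and -1.23 in compound Hoxa-null. The libraries thus fell in order of their mutant Hoxa copies, with 0 copies highest, 1 copy between and 2 copies lowest, and with a gap of 1.71 between compound Hoxd-null, the lowest library with an intact Hoxa copy, and Hoxa-null. Relative to the mean log2 level of the 0-copy libraries, 1 mutant copy left 48.5% and 2 mutant copies left 13.0%. Levels in the vas deferens were 1.17 in WT, 1.01 in Hoxd-null, 0.34 in compound Hoxd-null, -1.12 in Hoxa-null and -2.03 in compound Hoxa-null. The order by Hoxa copies was the same as in the uterus, with a gap of 1.46, and the RNA left was 59.4% with 1 copy and 15.8% with 2 copies. Hoxa11 RNA as a share of WT was 15.0% in the uterus and 20.5% in the vas deferens of Hoxa-null mice, and 11.6% and 10.9% in compound Hoxa-null mice. Within lanes, lane 1 held uterine levels of 1.88 (WT) and -0.86 (Hoxa-null) and lane 2 held 1.92 (Hoxd-null), 0.86 (compound Hoxd-null) and -1.23 (compound Hoxa-null). Within the shared lane of the vasa deferentia the Hoxd-null library stood at 1.01 against -1.12 and -2.03 for the 2 Hoxa-null genotypes.

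Hoxd11, its paralogue on chromosome 2, followed the mutant copies of its own cluster less closely. Uterine Hoxd11 stood at 1.04 in WT, 0.45 in Hoxd-null, 0.31 in Hoxa-null, -0.31 in compound Hoxa-null and -0.54 in compound Hoxd-null. The libraries with 2 mutant Hoxd copies did not lie together: Hoxd-null was second highest and compound Hoxd-null lowest. The order did follow the sum of mutant copies of both clusters, with 0 in WT, 2 in each single mutant and 3 in each compound mutant. Vas deferens levels were 1.31 in WT, 0.44 in Hoxa-null, 0.14 in compound Hoxd-null, -0.14 in compound Hoxa-null and -1.16 in Hoxd-null. The lowest library was thus Hoxd-null, at 18.1% of WT, while compound Hoxd-null, with a further mutant Hoxa copy, was at 44.4%, and the 2 libraries came from different runs. WT was highest in both tissues, and every mutant was below it, by 1.51-fold to 2.99-fold in the uterus and by 1.83-fold to 5.54-fold in the vas deferens. Hoxa-null, with 2 intact Hoxd alleles, held 60.1% (uterus) and 54.5% (vas deferens) of WT, both short of 2-fold and each from 1 library. Values below the WT library were thus also seen without mutant Hoxd alleles. Against the mean of the 3 libraries with an intact Hoxd copy, in place of WT, compound Hoxd-null was at -0.89 in the uterus and at -0.40 in the vas deferens, short of 2-fold, and Hoxd-null in the uterus was at 0.10, so that its place below the reference rests on the WT library.

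Hoxa10, which acts in the uterine stroma in the response to progesterone and at implantation, was lowest with 2 mutant Hoxa copies in both tissues, by a smaller amount than Hoxa11. Uterine levels were 0.82 in Hoxd-null, 0.39 in WT, 0.02 in compound Hoxd-null, -0.02 in compound Hoxa-null and -0.67 in Hoxa-null. The gap between the group with 2 mutant copies and the other 3 libraries was 0.04, which is smaller than the 0.44 between WT and Hoxd-null, so the uterine libraries form a graded series and not separate groups. For the vas deferens the levels were 0.32 in WT, 0.27 in Hoxd-null, 0.21 in compound Hoxd-null, -0.48 in Hoxa-null and -0.55 in compound Hoxa-null. Here the 3 libraries with at least 1 intact copy lay within 0.11 of each other, the 2 others within 0.08, and the gap between them was 0.69. The RNA left with 2 copies was 51.7% of the 0-copy mean in the uterus and 57.1% in the vas deferens, and with 1 copy 66.7% and 94.4%.

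Hoxd10, the paralogue of Hoxa10, was not low in mice that carry its own mutation. Its uterine levels were 0.78 in Hoxd-null, 0.46 in compound Hoxd-null, 0.20 in WT, -0.20 in compound Hoxa-null and -0.52 in Hoxa-null. Both libraries with 2 mutant Hoxd copies were above the other 3, with a gap of 0.26. As a mean they held 172% of the libraries with no mutant Hoxd copy, which were of another lane. Its levels in the vas deferens were 0.81 in compound Hoxd-null, 0.32 in WT, 0.05 in Hoxd-null, -0.05 in Hoxa-null and -0.11 in compound Hoxa-null, so the 2 Hoxd-null genotypes lay at the top and in the middle. The 2 lowest libraries in both tissues were those with 2 mutant copies of Hoxa, the other cluster, with uterine values of 60.4% and 75.5% of WT and vas deferens values of 77.4% and 74.4%. In the vas deferens that order rests on 0.11 between Hoxd-null and Hoxa-null.

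Hoxa9, the member of the Hoxa trio known from the oviduct, did not follow its own mutation. In the uterus its 5 levels spanned 0.61, from 0.21 in compound Hoxa-null through 0.10 in compound Hoxd-null, 0.06 in Hoxd-null and -0.06 in WT to -0.40 in Hoxa-null, so the libraries with 2 mutant copies held the highest and the lowest place. Among the vasa deferentia 1 library stood apart from the rest: compound Hoxd-null was at 1.13, while Hoxa-null was at 0.09, Hoxd-null at -0.09, compound Hoxa-null at -0.19 and WT at -0.53. That library held 314% of WT and was the 1 vas deferens library of run 136. The WT caudal epididymis, of the same run but of another lane, was at 0.53, the second highest of the 6. The part of the run in this value was not tested.

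Hoxd9, the paralogue of Hoxa9, differed between the tissues. In the uterus its 5 levels spanned 0.42, with WT at 0.16, Hoxd-null at 0.15, Hoxa-null at 0.10, compound Hoxd-null at -0.10 and compound Hoxa-null at -0.26, and the Hoxd-null library held 99.8% of WT. Its vas deferens levels were 0.85 in Hoxa-null, 0.17 in WT, -0.17 in compound Hoxa-null, -1.04 in compound Hoxd-null and -1.12 in Hoxd-null. There the order followed the mutant Hoxd copies, with a gap of 0.87 below the 1-copy library, 62.6% left with 1 copy and 33.3% with 2 copies. The 2 libraries with 2 mutant copies came from different runs and lay within 0.08 of each other. Whether the effect differs between uterus and vas deferens was not tested, since each tissue has 1 library per genotype.

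Taking the members as groups, 2 of 3 Hoxa members, Hoxa10 and Hoxa11, had both libraries with 2 mutant Hoxa copies below the 3 other genotypes in the uterus and the same 2 did in the vas deferens. With Hoxd10 added from the other cluster this was 3 of 6 members, where 13.1% of all measured genes had this order in the uterus and 21.2% in the vas deferens. For 2 mutant Hoxd copies it was 0 of 6 members in the uterus, where the background was 13.7%, and 1 of 6, Hoxd9, in the vas deferens, where it was 11.9%. Among the 3 Hoxd members 1 library decided the place of Hoxd11: it joined the count in the uterus without Hoxd-null (1 in place of 0), and in the vas deferens without compound Hoxa-null or without compound Hoxd-null (2 in place of 1). Among the 3 Hoxa members, Hoxa9 joined the count in the uterus without compound Hoxa-null (3 in place of 2). Of the 3 Hoxa members the one nearest the 5′ end of the cluster, Hoxa11, had the lowest share left with 2 mutant copies in both tissues, Hoxa10 the next and Hoxa9 the highest. Among the Hoxd members the order differed between the tissues, with Hoxd11 lowest in the uterus at 60.7% and Hoxd9 lowest in the vas deferens at 33.3%, just below Hoxd11 at 38.3%.

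**Figure D2:**
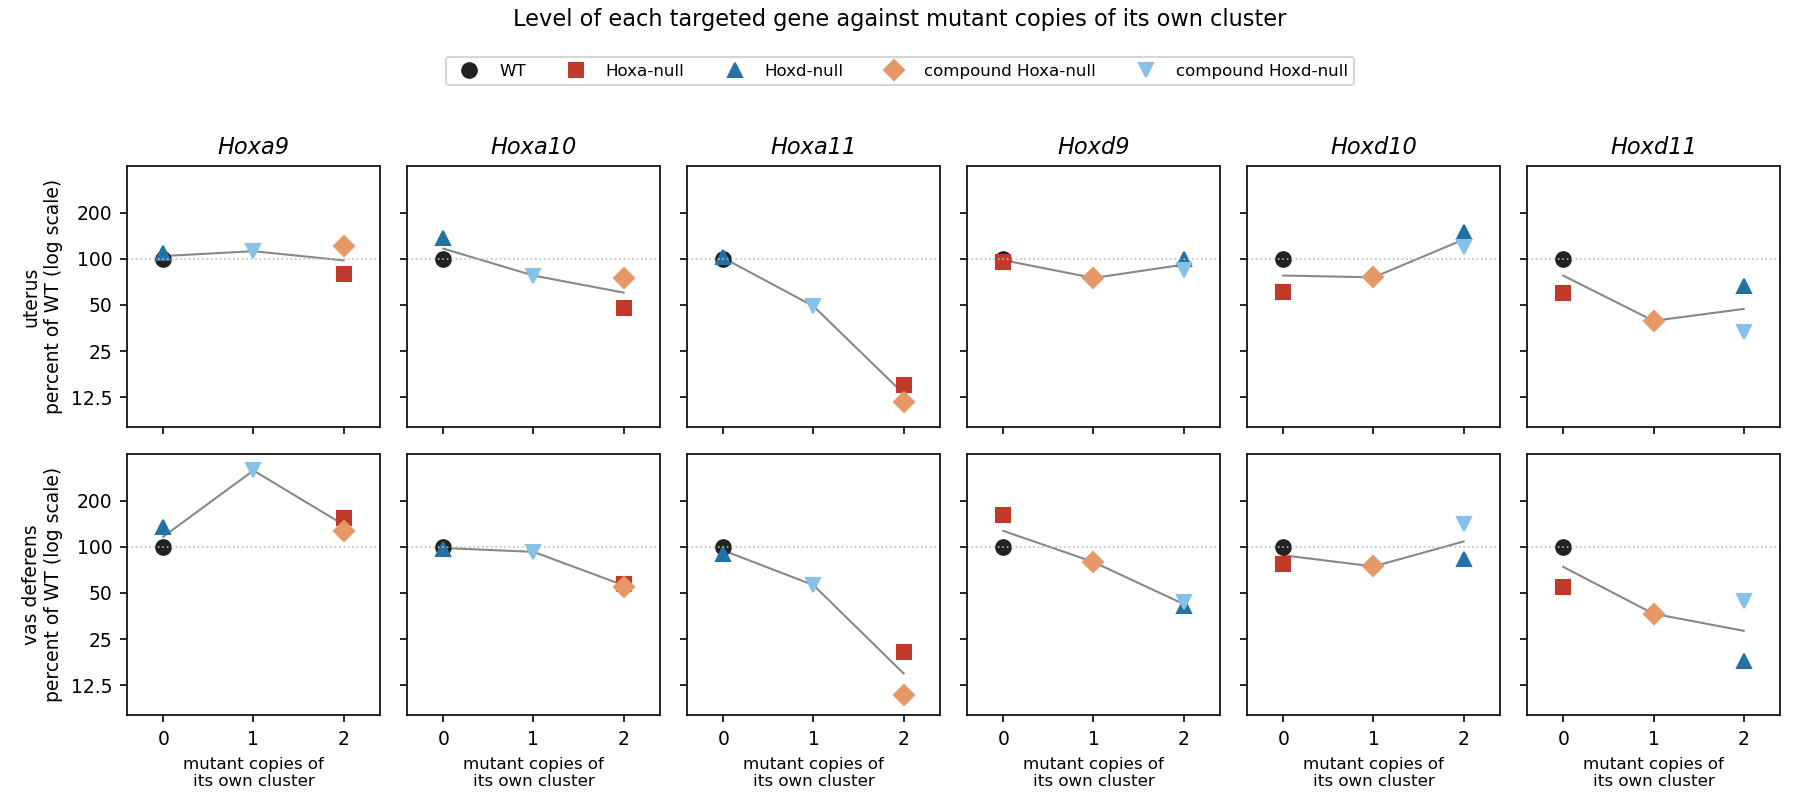
Level of each targeted gene as percent of the WT library of its tissue (y axis, log scale) against the number of mutant copies of its own cluster (x axis), top uterus, bottom vas deferens; symbols are single libraries and the line joins the means of their log2 values. Hoxa11 goes down at each step to 11.6% and 15.0% in the uterus with 2 copies, Hoxd9 does so in the vas deferens, and Hoxd10 is above 100% in both uteri with 2 copies.

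The mutant copies of the other cluster were compared in libraries that carry the same number of mutant copies of a gene's own cluster. There were 24 such comparisons, 12 in each tissue, and 1 of them passed 2-fold: in the vas deferens Hoxd11 was 2.46-fold higher in compound Hoxd-null than in Hoxd-null, libraries of different runs. In the uterus the same comparison of Hoxd11 went the other way, with compound Hoxd-null at 50.4% of Hoxd-null, 2 libraries of the same lane. The added mutant Hoxd copy went with less Hoxa11 in both tissues, at 77.4% of the Hoxa-null library in the uterus and 53.0% in the vas deferens. The uterine libraries of this comparison were of different lanes. For Hoxa10 the same comparison gave 157% in the uterus and 94.8% in the vas deferens, and for Hoxa9 152% and 82.3%. With the Hoxa alleles intact, 2 mutant Hoxd copies left Hoxa11 at 102% of WT in the uterus and 89.6% in the vas deferens. With the Hoxd alleles intact, 2 mutant Hoxa copies left Hoxd9 at 95.7% and 161%, Hoxd10 at 60.4% and 77.4% and Hoxd11 at 60.1% and 54.5% of WT in the uterus and vas deferens. In all, 14 of the 24 differences were downward, 7 of 12 in each tissue. The share of all measured genes was not computed for pairs of 2 mutant libraries. Neither this count nor the 1 of 24 past 2-fold thus has a background beside it, and neither is read as a result.

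Along the female tract, all 6 genes were far lower in the oviduct than in the uterus. The oviduct levels were -1.95 for Hoxa9, -2.70 for Hoxa10, -3.45 for Hoxa11, -2.06 for Hoxd9, -3.24 for Hoxd10 and -3.12 for Hoxd11. For every gene all 5 uteri, mutant or not, lay above the oviduct by at least 1.55 on the log2 scale. The count of genes at least 2-fold lower than in the WT uterus was 6 of 6, against 11.7% of all measured genes, and 0 were higher, against 16.6%. The count at least 2-fold below all 5 uteri was also 6 of 6, against 4.33%. Within each cluster the difference grew with the number of the gene. The oviduct was lower than the WT uterus by 3.70-fold for Hoxa9, 8.51-fold for Hoxa10 and 40.4-fold for Hoxa11. In the Hoxd cluster the values were 4.64-fold for Hoxd9, 10.9-fold for Hoxd10 and 17.9-fold for Hoxd11. Even the compound Hoxa-null uterus, with its 2 mutant Hoxa copies, lay 2.23 above the oviduct for Hoxa11. The oviduct library was sequenced in run 136 and the uteri in run 134, so tissue and run cannot be told apart here. At least 2-fold lower there than in the WT uterus were 6 of 8 smooth muscle markers (median of the list -1.12), 4 of 8 leukocyte markers (-0.94), 3 of 7 uterine stroma markers (-0.62) and 2 of 7 fibroblast markers (-0.84). At least 2-fold higher were 4 of 5 mesothelium markers (2.49), 4 of 6 adipocyte markers (1.47) and 5 of 5 measured ovarian genes (3.70). The oocyte gene Zp3 was at the floor in 4 of 5 uteri and at 1 read in the compound Hoxa-null uterus. It counted as measured only through the oviduct, so its higher value there was fixed by the filter. The part of the cells behind these markers in the result was not tested. In bulk tissue, fewer cells of a type and less RNA per cell cannot be told apart.

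**Figure D3:**
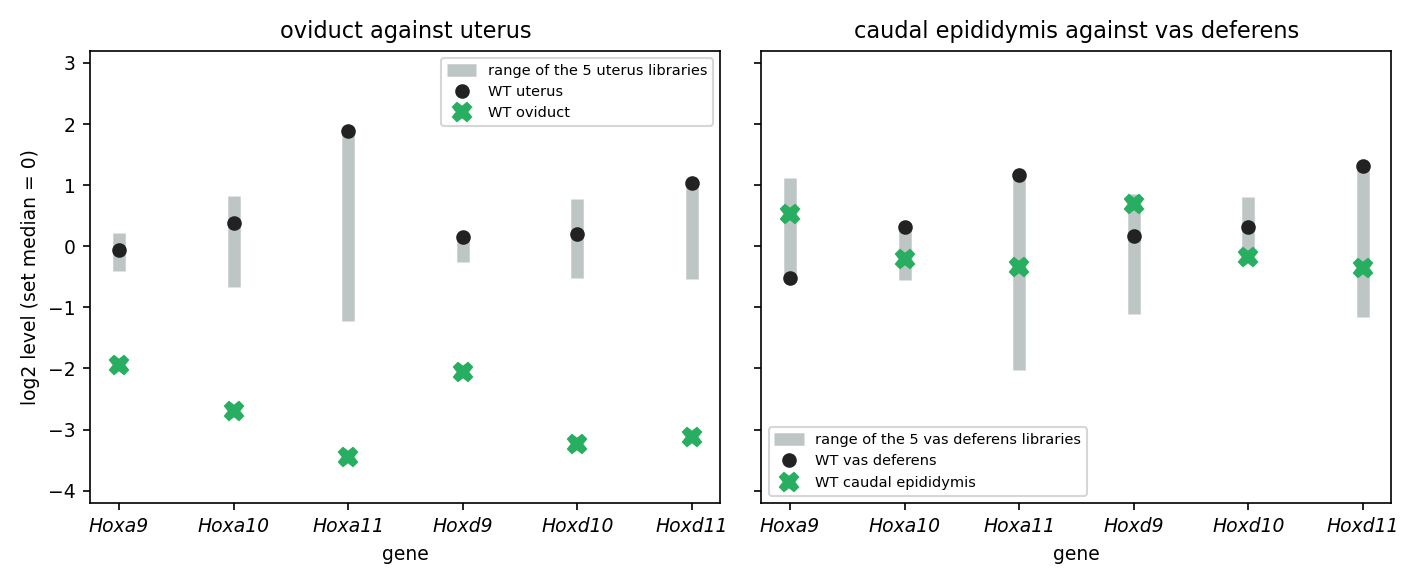
Log2 level (y axis, set median at 0) of the 6 genes in the WT oviduct (left) and WT caudal epididymis (right), each 1 library (cross), with the WT uterus or vas deferens (dot) and the range of the 5 genotypes of that tissue (bar). The oviduct lies below the whole uterine range for all 6 genes, from -1.95 to -3.45, while the caudal epididymis lies inside the range of the vas deferens for 5 of 6.

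Along the male tract the 6 genes did not move together. The epididymis was sequenced in run 136 and the WT vas deferens in run 134, so here too tissue and run cannot be told apart. In the caudal epididymis 2 of 6, Hoxa11 and Hoxd11, were at least 2-fold lower than in the WT vas deferens, against 12.9% of all measured genes, and 1 of 6, Hoxa9, was at least 2-fold higher, against 16.3%. The caudal epididymis held 35.2% of the WT vas deferens for Hoxa11 and 31.3% for Hoxd11, 69.2% for Hoxa10 and 70.6% for Hoxd10, and 208% for Hoxa9 and 145% for Hoxd9. The order by gene number was thus the same in both clusters and paralogues had like values. Both Hox9 genes were higher than in the WT vas deferens and both Hox11 genes lower. Set against the mean of the 5 vasa deferentia in place of WT, 0 members were 2-fold lower and 0 higher. The levels were 0.53 for Hoxa9, -0.21 for Hoxa10, -0.34 for Hoxa11, 0.70 for Hoxd9, -0.18 for Hoxd10 and -0.36 for Hoxd11. None of the 6 was at least 2-fold below all 5 vasa deferentia, where the background was 3.65%, and Hoxd10 was the 1 gene below all 5, by 0.08. For Hoxa11 the epididymis, with intact alleles, lay above the 2 vasa deferentia with 2 mutant Hoxa copies and below the other 3. At least 2-fold lower in the epididymis were 8 of 8 smooth muscle markers (median -1.62), 6 of 6 skeletal muscle markers (median -2.09) and 4 of 5 mesothelium markers. Germ cell markers were higher for 5 of 6 (median 4.04). The part of these cells in the levels of the 6 genes was not tested.

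Ratios of 2 genes within a library do not depend on the depth of that library. In the WT uterus and vas deferens each ratio was set to 100%. The ratio of Hoxa11 to Hoxd11 was 24.9% in Hoxa-null and 29.4% in compound Hoxa-null uterus, and 37.6% and 29.7% in the vas deferens. It was 154% in Hoxd-null and 147% in compound Hoxd-null uterus, and reached 496% and 127% for the vas deferens. The balance of the Hox11 pair was thus tilted away from the cluster with 2 mutant copies in all 8 mutant libraries. The ratio of Hoxa10 to Hoxd10 moved far less, from 65.0% in compound Hoxd-null to 99.8% in compound Hoxa-null uterus, and from 65.8% in compound Hoxd-null to 116% in Hoxd-null vas deferens. The ratio of Hoxa9 to Hoxd9 lay between 82.5% and 161% in the mutant uteri, and in the vas deferens it reached 329% in Hoxd-null and 723% in compound Hoxd-null. Within the Hoxa cluster, the ratio of Hoxa11 to Hoxa10 was 31.2% in the Hoxa-null uterus and 15.4% with the added Hoxd copy, and 35.6% and 19.9% in the vas deferens, so Hoxa11 was further below its WT level than Hoxa10 in the same mutant libraries. In the WT oviduct this ratio was 21.1% and in the WT caudal epididymis 50.8%.

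**Figure D4:**
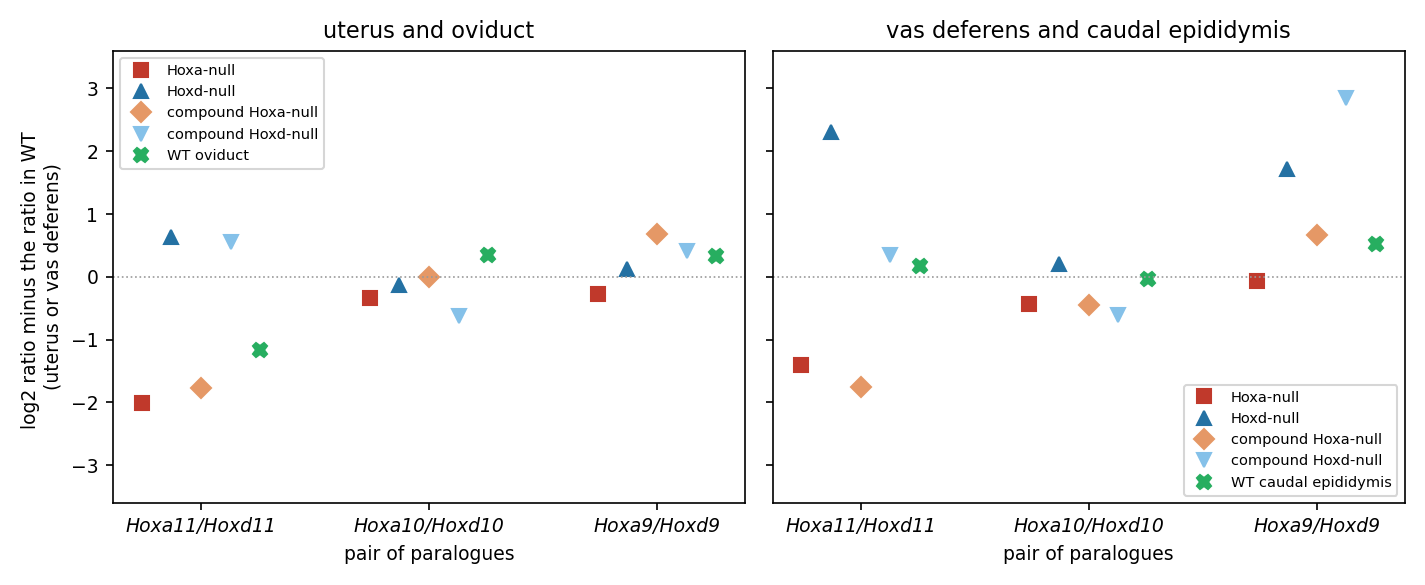
Log2 ratio of the Hoxa gene to its Hoxd paralogue within a library, minus the same ratio in the WT uterus (left) or WT vas deferens (right), so that 0 is the WT ratio (y axis); each symbol is 1 library. The Hox11 ratio is below 0 in both Hoxa-null genotypes (-2.01 and -1.76 in the uterus, -1.41 and -1.75 in the vas deferens) and above 0 in both Hoxd-null genotypes, while the Hox10 ratio stays between -0.62 and 0.35.

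Other genes of the clusters moved on another scale than the targeted ones. Of the Hox9 to Hox11 genes of the Hoxb and Hoxc clusters, 4 in all, Hoxc9, Hoxc10 and Hoxc11 were all past 2-fold above WT in each of the 4 mutant uteri. Hoxb9 differed from WT there by -0.29 to 0.72. In the vas deferens 2 of these 4 were 2-fold higher in Hoxa-null, 2 in Hoxd-null, 3 in compound Hoxa-null and 2 in compound Hoxd-null. Hoxc10 was at -0.42 in the Hoxd-null vas deferens. Of 7 other Hoxa genes measured in the uterus, 6 were at least 2-fold higher in Hoxa-null (median 1.99), 1 in Hoxd-null (0.71), 7 in compound Hoxa-null (2.39) and 6 in compound Hoxd-null (1.13). Medians of the 6 targeted genes in the same order were -0.73, 0.07, -0.41 and -0.31. Among 8 measured other Hoxa genes in the vas deferens, 5, 2, 6 and 6 were higher in that order of genotypes, and 1 was lower in each of the 2 Hoxa-null genotypes. That gene was Hoxa13, which acts at the far end of the tract, at -3.55 without and -3.61 with the added mutant Hoxd copy. Hoxa13 counted as measured only through WT, Hoxd-null and compound Hoxd-null, at 54.0, 42.3 and 67.0 normalised reads. Hoxa-null and compound Hoxa-null had 4.61 and 4.42, so its place among the lower genes was tied to the filter. Of the other Hoxd genes, 3 were measured in the uterus and 0 were 2-fold apart from WT in any mutant. Of 5 measured in the vas deferens 2, Hoxd12 and Hoxd13, were lower in the same 2 genotypes. The 7 measured genes beside the Hoxd cluster had 0 members 2-fold apart in any mutant of either tissue. The 8 beside the Hoxa cluster had 0 in the 2 uteri with 2 mutant Hoxa copies, 1 in each of the other 2 mutant uteri, 2 in the Hoxa-null vas deferens and 1 in each other mutant vas deferens. The median over all measured genes lay between 0 and 0.02 in every comparison of mutant and WT. The shares of all measured genes past 2-fold in each mutant, 3.45% to 14.1%, are given above with the targeted genes. These lists were drawn up with earlier results of these data known.

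Cofactors of Hox proteins, reported targets and reported regulators were counted at the same 2-fold difference from WT. In the order Hoxa-null, Hoxd-null, compound Hoxa-null, compound Hoxd-null, 7.41%, 5.95%, 6.97% and 6.41% of all measured genes were lower in the uterus. Higher were 6.15%, 6.41%, 8.77% and 8.19%. In the vas deferens 8.57%, 5.03%, 8.50% and 5.48% were lower and 11.0%, 3.45%, 14.1% and 7.80% higher. A count of 0 or 1 in lists this short lies near these shares. Of 9 measured cofactors, which are Meis, Pbx and Pknox genes whose proteins bind DNA beside Hox proteins, 1 was lower in the Hoxa-null uterus (Pbx4, -1.19) and 0 were 2-fold apart in the other 3 mutant uteri. Meis1 was the 1 lower in the Hoxa-null vas deferens (-1.13; -0.95 in compound Hoxa-null) and was also at -1.56 in the epididymis. Pbx4 was the 1 higher in the compound Hoxa-null vas deferens (1.69). Of 10 measured genes reported as targets of Hox10 or Hox11 proteins, 3, 2, 3 and 2 were at least 2-fold lower and 0, 1, 0 and 0 higher in the 4 mutant uteri in the same order. The lower ones included Eya1, a partner of Hox11 proteins in the kidney, at -3.84, -1.69, -3.76 and -3.31. Igfbp1 was also among the lower ones in all 4 (-4.45, -4.19, -4.45 and -4.45). It counted as measured only through WT, at 21.9 normalised reads against 1 to 1.20 in the mutants. Its place among the lower genes was thus fixed by the filter. Of the 10 measured in the vas deferens, 3, 0, 3 and 0 were lower and 0, 0, 2 and 1 higher. Vas deferens values of Eya1 were -2.22, 0.14, -1.82 and 0.58. Among the 15 reported regulators measured in the uterus, Wnt4, a signal of the Müllerian duct, was the 1 gene 2-fold apart, higher in both genotypes with 2 mutant Hoxd copies (1.89 in compound Hoxd-null). Of 14 in the vas deferens, 3, 1, 4 and 1 were higher and 1, 0, 2 and 0 lower.

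Markers of cell types moved with the genotypes too, and their part in the levels of the 6 genes was not tested. Deposited values allow differences of a marker and no summed level of a list. Counts stand beside the shares of all measured genes past 2-fold given above for each mutant, 3.45% to 14.1%. In the uterus, 8 of 8 markers of stratified epithelium were past 2-fold above WT in 3 of 4 mutants, with medians of 6.61 for Hoxa-null, 4.20 for compound Hoxa-null and 1.80 for compound Hoxd-null, and 1 of 8 was in Hoxd-null. The 7 markers of uterine stroma, the cells in which Hoxa10 and Hoxa11 are known to act, had medians of 0.11 in Hoxa-null and 0.33 in compound Hoxa-null, with Hand2 the 1 gene 2-fold lower in both (-1.95 in the compound). Fibroblast markers had medians of 0.75 and 1.10 and smooth muscle markers of 0.17 and 0.80 in these 2 uteri. Leukocyte markers were at least 2-fold higher for 6 of 8 in the Hoxd-null (median 1.16) and compound Hoxd-null uterus (1.44), and adipocyte markers were 2-fold lower for 4 of 6 in Hoxa-null (-1.10) and 5 of 6 in compound Hoxd-null (-2.98). Smooth muscle markers of the vas deferens were at least 2-fold lower for 3 of 8 in Hoxa-null (median -0.91), 5 of 8 in compound Hoxa-null (-1.24) and 2 of 8 in compound Hoxd-null (-0.53), and for 0 of 8 in Hoxd-null (0.17). Adipocyte markers were at least 2-fold higher for 5 of 6 in the first 3 of these libraries, with medians of 2.25, 2.65 and 2.27. Markers of the caudal epididymis were at least 2-fold higher in 6 of 8, 5 of 8 and 4 of 8 cases there, while Lcn5 was lower in the first 2 (-1.40 and -2.18). The higher ones in Hoxa-null, and those in Hoxd-null given below, include Spint4 near the floor. It was at 2.76 and 3.89 normalised reads in these libraries, against 1 in WT. Skeletal muscle markers were higher for 4 of 6 in Hoxa-null (median 1.30) and compound Hoxa-null (1.26, with 1 lower). In compound Hoxd-null 5 of 6 were lower (-1.13). Mesothelium markers were lower for 2 of 5 in Hoxa-null (-0.99), 4 of 5 in compound Hoxa-null (-1.63) and 1 of 5 in compound Hoxd-null (-0.34). Hoxd9 and Hoxd11 were low in the Hoxd-null vas deferens, in which 0 of 8 smooth muscle, 0 of 7 fibroblast and 0 of 8 leukocyte markers were 2-fold apart from WT, while 5 of 6 germ cell markers (median -1.33), 2 of 6 skeletal muscle markers (-0.49) and 1 of 5 vas deferens markers (0.36) were lower, 2 of 8 caudal epididymis markers (0.39) and 1 of 6 adipocyte markers (0.12) were higher, and of 5 oviduct markers 1 was higher and 1 lower.

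The genes most like each member were found by Pearson's r over the 12 libraries, after each gene was centred within its set, among 15888 genes measured in both sets. The libraries share depth, lanes and tissue makeup, and r is given as a description. For Hoxa11 the nearest were Cdh11 (r = 0.98), a cadherin of mesenchymal cells, Pth1r (0.96), the parathyroid hormone receptor, Hand2 (0.96), a transcription factor of the uterine stroma, Adam11 (0.95) and Bdh2 (0.94). Without the oviduct and the epididymis these 5 had r between 0.91 and 0.97 over 10 libraries. Those 10 had also served to choose them, so high values were to be looked for. When the 5 nearest were chosen over the 10 alone, 2 were shared, and by Spearman correlation over all 12 also 2. For Hoxa10 they were Rspo3 (0.96), a secreted enhancer of Wnt signals, its paralogue Hoxd10 (0.96), Osr2 (0.95), a zinc finger factor, Lsp1 (0.95) and Eif2a (0.93). Hoxa10 and Hoxd10 had r = 0.80 over the 10 libraries, while Rspo3 and Osr2 kept 0.94 and 0.95. For Hoxd10 the list held Pira1 (0.97), Sh2d2a (0.96), Lsp1 (0.96), Mamdc2 (0.96) and Hoxa10, and Pira1 was at 0.78 without the 2 libraries. Hoxa9 was most like Clk3 (0.92), Afmid (0.91), Gabrb2 (0.91), Fam131b (0.90) and Rbm22 (0.89). Hoxd9 was most like Timm44 (0.95), Tmem14c (0.94), Rps10 (0.94) and Senp3 (0.94), and of these Rps10, a ribosomal protein gene, has near-identical copies that could share reads. Hoxd11 was most like Prkrip1 (0.91), Dctn5 (0.91), Rasip1 (0.91), Pola2 (0.90) and Magohb (0.89). Between members of the Hoxa cluster, Hoxa10 and Hoxa11 had r = 0.87 over the 10 libraries and Hoxa9 had 0.04 with Hoxa11 and 0.23 with Hoxa10.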

How the data were processed

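RNA was sequenced from 12 pooled libraries, 1 per tissue and genotype. Per the labels, extraction used a Qiagen RNeasy Mini kit and library preparation Illumina TruSeq, and per the submitters' processing notes TopHat and mm9 were used. The normalisation and counting tool were not given in the sources used here. The deposited values are log2 levels that the authors centred, setting the median of the 6 libraries of a sex to 0 for each gene. The spacing of low values shows read counts times 1 factor per library, with a floor of 1 normalised read. The ratio of these factors gives relative depth, and total counts are unknown. Genes were kept as measured when their highest library reached 20 normalised reads, or when their level could not be read and showed no low-count steps, which left 16954 female and 17149 male genes. Differences of deposited values were used as they stand, 2-fold counted as apart, and no test was made with 1 library per group. The design listed a pseudocount of 10 where levels can be read, which no member allows. Named genes were the members, up to 4 genes per list with the largest difference from WT in any mutant (lists are otherwise given by count), and the 5 genes most like each member, with predicted genes passed over and 1 gene not reported here. The members and lists were chosen with earlier results of these data known. Homeoboxes were read from GENCODE transcripts of GRCm38. None of 11 cluster non-coding RNAs was found by symbol in the tables and they are not analysed here. The scripts, in Python 3.11.15 with pandas 2.3.3 and NumPy 2.4.6, were tested on simulated data.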

Additional observations from a re-analysis of the deposited data

How the results depend on the processing

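With 1 library per group no value has a replicate error, and the reads behind the 6 genes are unknown. Lane or run and genotype overlap in the vas deferens, and lane and the presence of a mutant Hoxd copy overlap in the uterus. Of 24 differences of a member from WT in mice with 2 mutant copies of its cluster, 2 lost the 2-fold call when the mean of the 3 libraries with intact copies replaced WT as reference: Hoxd11 in compound Hoxd-null became -0.89 in the uterus and -0.40 in the vas deferens. Under the same reference 5 of the 24, none of them 2-fold, changed sign: Hoxd9 (-0.00 to 0.16) and Hoxd11 (-0.59 to 0.10) in the Hoxd-null uterus, Hoxd10 in the Hoxd-null vas deferens (-0.27 to 0.00039), and Hoxa9 in the Hoxa-null (0.62 to -0.08) and compound Hoxa-null vas deferens (0.34 to -0.36). Shifting each library to a median difference of 0 changed no 2-fold call and no sign among 48.

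Counts of low members depended on the fold. At 4-fold, Hoxa-null uterus kept 1 Hoxa member of 2, compound Hoxd-null uterus 0 Hoxd members of 1, Hoxd-null vas deferens 1 of 2 and compound Hoxd-null vas deferens 0 of 2. At 1.5-fold, 1 Hoxd member in place of 0 was low in the Hoxd-null uterus, and 2 Hoxa members in place of 1 were low in the Hoxa-null vas deferens and 2 in place of 1 in the compound Hoxa-null vas deferens. With the mean of the intact libraries as reference, compound Hoxd-null had 0 low Hoxd members in the uterus and 1 in the vas deferens. With the mean of the 5 vasa deferentia as reference, 0 members were lower and 0 higher in the caudal epididymis, where WT as reference gave 2 and 1.

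When both libraries with 2 mutant copies had to lie at least 2-fold below the other 3, the Hoxa count went from 2 to 1 in the uterus and from 2 to 1 in the vas deferens, Hoxa11 in each, and the Hoxd count in the vas deferens from 1 to 0. Leaving out each library in turn, the Hoxd count ranged from 0 to 1 in the uterus, with 1 without Hoxd-null, and from 1 to 2 in the vas deferens, with 2 without compound Hoxa-null or without compound Hoxd-null. The Hoxa count was 3 in place of 2 in the uterus without compound Hoxa-null, and stayed at 2 otherwise in both tissues. With no filter on low values the percent of all genes 2-fold higher was 3.93 for Hoxa-null, 5.82 for compound Hoxa-null and 5.16 for compound Hoxd-null uteri, and 6.76, 9.34 and 5.17 in the vas deferens of the same genotypes, each lower by over 1.5 times than with the filter. By Spearman correlation 2, 0, 2, 0, 0 and 1 of the 5 genes most like Hoxa9, Hoxa10, Hoxa11, Hoxd9, Hoxd10 and Hoxd11 were shared with those by Pearson correlation, and 1, 2, 2, 2, 0 and 0 were shared over 10 libraries without oviduct and epididymis, an alternative chosen after seeing the data. A pseudocount of 10 was not run, since the levels of the members cannot be read.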
